A study of Rattus norvegicus with 24 samples.

Results

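The saline RNA of the ventral striatum was compared with the saline RNA of 5 other brain regions of the rat, to find which genes the ventral striatum held at high or low levels. The ventral striatum had 4 saline channels, out of 24 saline channels in the series. They were chosen by their labels alone: on each of the 24 two-colour arrays RNA of saline rats shared the slide with RNA of MK-801 rats, and the colour that carried the saline RNA was read. The other 20 saline channels came from cerebral cortex, amygdala, hippocampus, hypothalamus and midbrain, with 4 channels in each region.

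The animals were male Wistar rats, 10 weeks of age. The control group was 3 rats given saline by intraperitoneal injection, and the treated group was 6 rats given the NMDA receptor channel blocker MK-801 at 0.08 or 0.16 mg/kg. Every brain was removed 40 min after the injection and dissected into regions, so all saline values also follow an injection. Saline RNA was in Cy3 on 2 of the 4 arrays of a region and in Cy5 on the other 2. Neither the rat behind an array nor any pooling is given in the labels, so the 4 channels of a region may hold the same RNA and their spread may be technical.

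The striatum is the input station of the basal ganglia, and its ventral part, which includes the nucleus accumbens and olfactory tubercle, is known for its role in motivation and reward. Most of its neurons are spiny projection neurons that release GABA. Those of the direct pathway carry the D1 dopamine receptor and the peptides substance P and dynorphin, and those of the indirect pathway carry the D2 dopamine receptor, the adenosine receptor encoded by Adora2a and enkephalin. These receptors act through G proteins that raise or lower cyclic AMP, and the neurons are rich in the proteins of that cascade.

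Each gene was read by its brightest probe as a log2 signal, after the 24 saline channels had been brought to a common distribution. Of the array's genes and transcripts, 28709 were well above background in at least 4 saline channels and were measured. A ventral striatum channel had 64.6% to 81.5% of its probes well above background, against 56.8% to 89.7% in the other regions' channels, and at most 1 ventral striatum spot per channel was saturated. Ventral striatum channel 1 stood apart from the rest of its region: its levels correlated across genes with those of channels 2, 3 and 4 at r = 0.973 to 0.976, whereas those channels correlated with each other at 0.987 to 0.994. Genes are not independent replicates, and these coefficients describe likeness only. Results are therefore also given without channel 1.

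Because the channels of a region may share RNA, each region counted as 1 value, the mean of its 4 channels, and the ventral striatum value was tested against the other 5 with limma. The error of every difference is thus the spread between the other regions, and the lone ventral striatum value was assumed to vary in the same way. A gene was called at a Benjamini-Hochberg adjusted p under 0.05. With 6 values an exact permutation test cannot give a p below 0.167. Only 3 genes (0.0104% of 28709) were called higher and 0 (0%) were called lower, while 645 genes were higher and 427 lower at an unadjusted limma p under 0.05. For 1 of the 3, Galntl5, no other region gave a reading well above background, so its call rests on background readings and carries no weight. Since so few genes could be called, a second description was added after the data had been seen: a gene was termed set apart when its ventral striatum level was at least 2-fold, that is 1 log2 unit, above or below the level of each of the other 5 regions.

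By that description 295 genes (1.03%) were set apart as higher in the ventral striatum and 133 (0.463%) as lower. For comparison, the ventral striatum was the highest of the 6 regions for 14.9% of all genes and the lowest for 14.4%. In 261 of the 295 higher genes and 114 of the 133 lower genes the 4 ventral striatum channels did not overlap the other 20 channels. Such a separation was found upward for 2.54% of all genes and downward for 1.63%. The set-apart genes were chosen on the means of these same channels, so their separation largely follows from that choice and adds no support. Among the 295, 90 were at least 4-fold and 31 at least 8-fold above every other region, and among the 133, 9 and 3 were that far below. Without channel 1 the counts were 299 higher, of which 263 were shared, and 123 lower, of which 107 were shared. Normexp background correction, which lifts dim signals, gave 185 higher and 61 lower. The filter asked for 4 channels, the number in a region, so a gene could be measured through the ventral striatum alone. With only probes well above background in all 24 channels, 125 genes were set apart as higher and 84 as lower. The balance of higher to lower genes thus depends on the filter. Scaling each channel to its 75th percentile gave 266 higher and 189 lower, so that the higher genes made up 58.5% of those set apart in place of 68.9%.

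**Figure D1:**
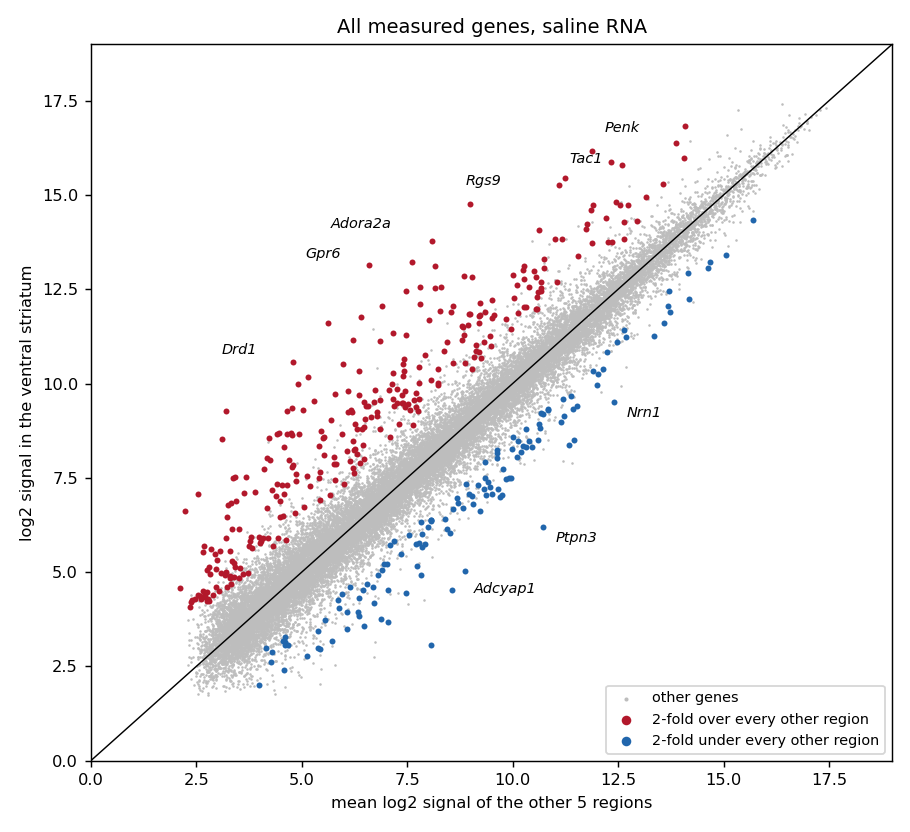
Log2 signal of each of 28709 measured genes in the ventral striatum (vertical axis, mean of 4 saline channels) against the mean log2 signal of the other 5 regions (horizontal axis). Red points are the 295 genes at least 2-fold over every other region, blue points the 133 genes at least 2-fold under every other region, grey points all other genes, and the line marks equal signal. Rgs9 lies 5.77 log2 units above the line and Ptpn3 at -4.53.

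The 3 genes that mark the ventral striatum here, Rgs9, Adora2a and Drd1, all had their highest level in it. Rgs9, a regulator that speeds the switching-off of G proteins in striatal neurons, read 14.62, 14.68, 14.88 and 14.84 in ventral striatum channels 1 to 4, and between 8.41 and 9.86 with a median of 8.95 in the other 20 channels. The groups did not overlap, and the ventral striatum lay 5.77 ± 0.45 (SE, 1 region against 5) log2 units above the mean of the other regions, a 54.6-fold difference with an adjusted limma p of 0.0344. The next region was the amygdala, 5.14 log2 units lower. The Rgs9 probe lies at chr10:98612855-98612914 on the minus strand of rn3, the rat assembly the array files use.

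Adora2a, the adenosine receptor gene of indirect pathway neurons, read 13.92, 13.70, 13.84 and 13.61 in the ventral striatum and between 7.22 and 9.04, median 7.87, elsewhere. The difference was 5.68 ± 0.57 (SE), 51.4-fold, with an adjusted limma p of 0.0773, so the gene was not called. Its ventral striatum channels lay above all others, but they may hold the same RNA and do not count as replicates. A second Adora2a probe gave a difference of 5.95. Drd1, the D1 receptor of direct pathway neurons, read 10.46, 10.61, 10.70 and 10.52 in the ventral striatum and between 2.88 and 6.41, median 5.23, elsewhere. Its difference of 5.77 was as large as that of Rgs9, but the other regions spread widely, from 3.13 in midbrain to 6.31 in amygdala, which gave an SE of 1.10 and an adjusted limma p of 0.396. With normexp background correction the Drd1 difference was 3.97. The probes of Adora2a and Drd1 lie at chr20:13816081-13816140 (minus strand) and chr17:16657572-16657631 (plus strand) on rn3.

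**Figure D2:**
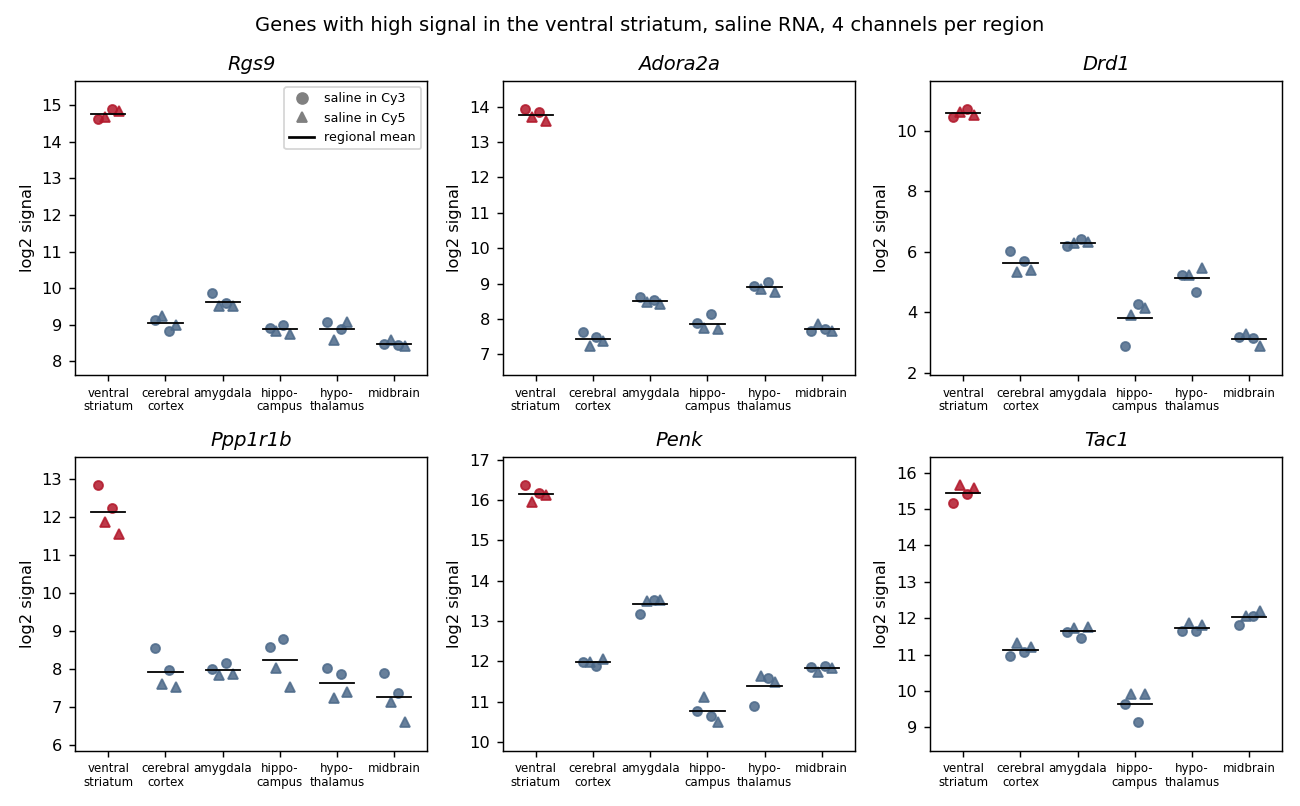
Log2 signal of Rgs9, Adora2a, Drd1, Ppp1r1b, Penk and Tac1 in each saline channel of the 6 regions, with circles for saline RNA in Cy3, triangles for saline RNA in Cy5 and a line for the regional mean. In every panel the 4 ventral striatum channels (red) lie above the 20 channels of the other regions (blue), and the regional margin over the next region is smallest for Penk at 2.73 log2 units and largest for Rgs9 at 5.14.

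Ptpn7 and Galntl5 were called beside Rgs9. Ptpn7, a tyrosine phosphatase best known from blood cells, read 9.64, 9.35, 9.06 and 9.10 in the ventral striatum and between 4.31 and 5.70, median 5.0, elsewhere. The difference was 4.24 ± 0.33 (SE), with an adjusted limma p of 0.0344. The other regions were close to each other, with the cerebral cortex next at a margin of 4.08. Galntl5, a relative of the enzymes that start mucin-type sugar chains, read 6.69, 7.50, 6.90 and 7.24 in the ventral striatum and was well above background in 0 of the 20 other channels. Where no channel of a region is well above background, only a bound can be given. It was taken from the dimmest signals that were well above background, and by it Galntl5 was at least 5.70-fold higher than in every other region. That floor is lenient and is not a strict upper limit on undetected RNA, so values given as at least hold only under it. For other genes with such a region the difference from the mean is given below as at least its size. All 3 calls were lost when any of the other regions was left out, when array number 2 or 3 was left out of every region, with 75th percentile scaling, with saline channels in Cy3 only, and when the scan day was taken as a block, which compares the ventral striatum with the cerebral cortex alone.

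Of the 295 higher genes, 94 were not well above background in at least 1 other region. With every such region held at its bound, 254 genes were still at least 2-fold above each region, and 201 genes needed no bound at all. A symbol was had for 169 of the 295 and for 67 of the 133 lower genes, and only these are named. Another probe existed for 42 of the higher genes, and in 4 of them it pointed the other way. In 6 of the 42 another probe was not highest in the ventral striatum. For the lower genes 23 had another probe and 0 pointed the other way. Not all of these probes were 2-fold lower than every other region. Second probes of Ptpn3 and Gnas had margins of -0.03, and that of Cntnap4 was 0.13 above the lowest region.

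Promoter sequence from RefSeq (assembly GRCr8, 250 bases before the transcription start) was matched for 133 of the 169 named higher genes and 54 of the 67 named lower genes. The promoters of 4 genes that were high together are shown, a G protein regulator (Rgs9), a receptor of indirect pathway neurons (Gpr6) and the peptide precursors of the direct pathway (Tac1 and Pdyn). Capitals mark matches on either strand to the CRE TGACGTCA (the cyclic AMP response element), the E-box CACGTG, the TATA box TATAAA or the CCAAT box CCAAT. The windows are chr10:94770388-94770637 (minus strand) for Rgs9, chr20:46075252-46075501 (minus) for Gpr6, chr4:36645333-36645582 (plus) for Tac1 and chr3:137366504-137366753 (minus) for Pdyn, each written 5′ to 3′ toward the start.
Rgs9: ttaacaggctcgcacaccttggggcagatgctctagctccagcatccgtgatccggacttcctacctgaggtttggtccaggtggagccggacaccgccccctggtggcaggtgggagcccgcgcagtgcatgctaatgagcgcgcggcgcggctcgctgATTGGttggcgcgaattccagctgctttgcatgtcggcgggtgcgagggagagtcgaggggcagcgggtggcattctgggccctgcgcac
Gpr6: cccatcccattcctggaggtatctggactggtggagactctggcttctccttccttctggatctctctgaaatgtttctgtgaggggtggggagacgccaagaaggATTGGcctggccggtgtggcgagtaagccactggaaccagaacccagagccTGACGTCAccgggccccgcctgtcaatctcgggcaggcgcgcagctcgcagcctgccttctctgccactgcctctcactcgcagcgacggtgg
Tac1: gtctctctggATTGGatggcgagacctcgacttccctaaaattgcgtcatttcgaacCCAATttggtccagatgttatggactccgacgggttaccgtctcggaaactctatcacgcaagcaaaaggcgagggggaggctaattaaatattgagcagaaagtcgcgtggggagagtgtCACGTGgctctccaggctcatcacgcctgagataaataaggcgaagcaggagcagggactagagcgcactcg
Pdyn: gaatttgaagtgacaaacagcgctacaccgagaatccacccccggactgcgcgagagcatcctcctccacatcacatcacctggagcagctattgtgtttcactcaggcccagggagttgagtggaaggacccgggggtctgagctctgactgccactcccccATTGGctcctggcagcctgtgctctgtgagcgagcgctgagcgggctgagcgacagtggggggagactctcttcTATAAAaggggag
A CRE stood in the Gpr6 window 93 bases before the start, an E-box in the Tac1 window 72 bases before the start, and a TATA box in the Pdyn window 13 bases before the start. All 4 windows held a CCAAT box. Over all 33469 promoters in the table a CRE was found in 1.59%, against 1.5% of the higher and 1.85% of the lower genes. The E-box was found in 5.59% of all promoters, in 18 (13.5%) of the 133 higher genes and in 3 (5.56%) of the 54 lower genes. TATA boxes were found in 12.9%, 9.02% and 11.1%, and CCAAT boxes in 34%, 27.8% and 29.6%, of all, higher and lower genes. A match shows letters in this window only.

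Direct pathway genes were high as a list. All 7 measured members were highest in the ventral striatum and 5 were set apart, and their median difference was 4.18 log2 units where that of all genes was -0.01. Against the cerebral cortex alone, which was scanned on the same day, the median was 3.50, and with normexp it was 2.75 with 4 members set apart. Tac1, which encodes the precursor of substance P, read 15.17, 15.65, 15.40 and 15.57 in the ventral striatum and between 9.15 and 12.20, median 11.63, elsewhere. It was 18.5-fold higher, 4.21 ± 0.82 (SE), with an adjusted limma p of 0.431. The midbrain was next, 3.42 lower, and the hippocampus lowest, 5.79 lower.

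Pdyn, the precursor of dynorphin, read 15.84 in channel 1 and 15.15, 15.04 and 15.05 in the other 3 channels, all above the range of 9.69 to 12.81 elsewhere. The difference was 4.18 ± 0.91 (SE), with the hippocampus, where dentate granule cells are known to make dynorphin, 2.76 below. Chrm4, the M4 muscarinic receptor that opposes D1 signalling, was set apart by a narrow margin, 1.12 over the cerebral cortex, and Slc35d3, a transporter-like protein of D1 neurons, by 1.92. Isl1, a transcription factor that specifies direct pathway neurons, differed by at least 3.78 from the mean of the other regions but by only 0.53 from the hypothalamus. Ebf1 was 0.70 above the midbrain. Isl1 and Ebf1 were thus highest in the ventral striatum without being set apart.

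Indirect pathway genes were also high. All 6 measured members were highest in the ventral striatum, 4 were set apart, and the median difference was 3.81 (3.41 with normexp). Gpr6, an orphan receptor of these neurons that raises cyclic AMP, had the largest difference of all 28709 genes, 6.56 ± 0.84 (SE), with an adjusted limma p of 0.163. It read 13.24, 13.03 and 13.23 in channels 2, 3 and 4, channel 1 having been dropped for an outlier flag, and between 5.10 and 8.35, median 6.45, elsewhere. Penk, the enkephalin precursor, read 16.37, 15.96, 16.17 and 16.13 and lay 2.73 above the amygdala, the next region. A dimmer Penk probe, well above background in 15 of 24 channels, gave a difference of 1.81 where the bright probe gave 4.28.

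Drd2, the D2 receptor, was lower in its margin than Drd1. It read 10.01, 9.52, 9.86 and 9.42 in the ventral striatum and between 5.31 and 7.77, median 6.29, elsewhere, with a difference of 3.35 ± 0.71 (SE). The midbrain, whose dopamine neurons carry D2 autoreceptors, was next at 2.10 below. Sp9 and Grik3 differed by 0.61 and at least 0.63 and stood 0.14 and 0.33 above the cerebral cortex, and without channel 1 only 5 of the 6 members were highest in the ventral striatum. In whole tissue a larger number of such neurons and more RNA in each of them cannot be told apart, and this holds for every gene below.

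The remaining dopamine receptors did not share this pattern. Drd5 was -0.15 from the mean of the other regions. Drd3, the D3 receptor known from the islands of Calleja, read 4.36, 4.19, 6.08 and 5.70 in the ventral striatum, and the first pair lay below the 4.90 to 6.57 of the other regions while the second lay inside it. Drd4 differed by -1.30 and was well above background in 1 of 4 ventral striatum channels. The median of the 5 receptors was therefore -0.15 although 2 of them were set apart.

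Listed striatal genes of the cyclic AMP and G protein cascade were mostly high. The list held genes known from the striatum, so its counts describe those genes and not the whole cascade. Of 21 measured members 19 were highest in the ventral striatum and 13 were set apart (12 without channel 1), with a median difference of 2.57 and 1 call, Rgs9. Ppp1r1b encodes DARPP-32, the phosphatase inhibitor that protein kinase A switches on in spiny neurons. It read 12.83, 11.86, 12.23 and 11.54 in the ventral striatum and between 6.60 and 8.79, median 7.85, elsewhere, a difference of 4.32 ± 0.42 (SE) with an adjusted limma p of 0.0773. The ventral striatum channels of Ppp1r1b lay above all others, and the next region was the hippocampus, 3.89 lower.

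Enzymes that make and break down cyclic nucleotides were among the members set apart. Adcy5, the main striatal adenylyl cyclase, read 14.64, 14.64, 14.88 and 14.77 against 10.35 to 12.80 elsewhere and differed by 2.84 ± 0.49 (SE). Pde10a, the phosphodiesterase of spiny neurons, differed by 3.77 and stood 3.35 above the hippocampus, and Pde1b, a calcium-activated phosphodiesterase, differed by 2.60. Ptpn5, the striatum-enriched phosphatase STEP, differed by 2.87, Rasd2, the GTPase Rhes, by 2.72, and Rasgrp2, an activator of Rap GTPases, by 3.45. None of these passed the test.

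The G protein subunits of the cascade differed among themselves. Gng7, a gamma subunit, differed by 3.80 and was set apart by 2.26 over the hippocampus. Gnal, the alpha subunit Golf that links D1 and Adora2a receptors to adenylyl cyclase, read 11.96, 12.06, 11.95 and 11.96 in the ventral striatum. It lay 2.39 above the mean of the other regions and 0.98 above the hypothalamus, and its other probes lay 2.73 and 2.74 above that mean. Gnas, the alpha subunit Gs that does this work in most other tissues, was set apart in the opposite direction, with 14.06, 13.76, 14.76 and 14.73 in the ventral striatum and 14.76 to 16.21 elsewhere, a difference of -1.36. A second Gnas probe gave -0.72 with a margin of -0.03, so Gnas was set apart on its brightest probe only. Gnas was not on a list and was picked after its values had been seen. Pde7b and Rgs4, at margins of -0.07 and -1.07 to the highest region, were the 2 listed cascade members with a higher level elsewhere. A second Rgs4 probe gave a difference of 1.79 and a margin of -0.04, where the brightest probe gave a difference of 0.39.

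**Figure D3:**
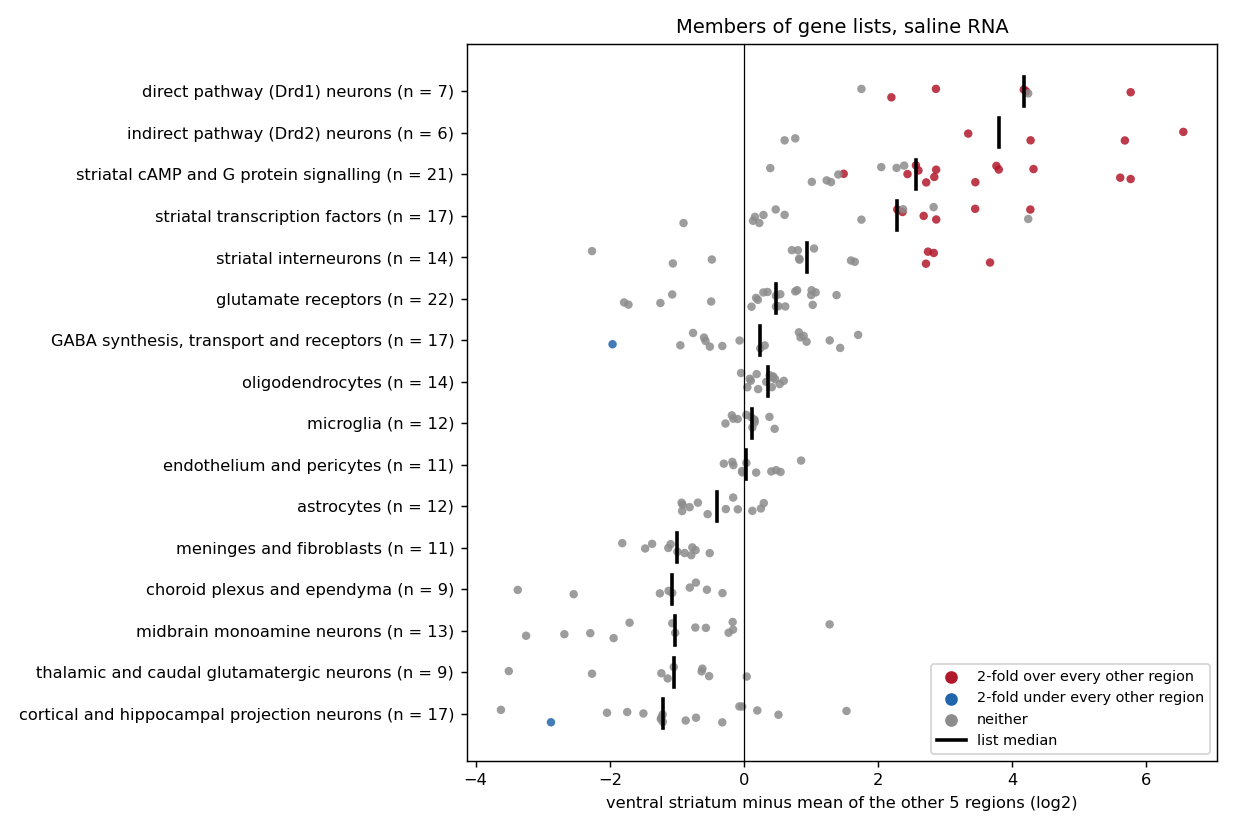
Difference between the ventral striatum and the mean of the other 5 regions (log2, horizontal axis) for each measured member of 16 gene lists, with a black bar at the list median. Red points are genes at least 2-fold over every other region, blue points genes at least 2-fold under every other region, and grey points neither. List medians run from 4.18 for direct pathway genes to -1.21 for projection neuron genes of cortex and hippocampus.

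Transcription factors known from the striatum were split. Of 17 measured, 11 were highest in the ventral striatum and 6 were set apart, with a median difference of 2.29 (1.36 with normexp). Dlx5, a homeobox factor of forebrain GABA neurons, was at least 4.17 above the mean and 2.64 above the amygdala. Foxp1, a forkhead factor of spiny neurons, read 15.02, 14.71, 14.89 and 14.61 against 11.20 to 13.19 elsewhere, a difference of 2.37 ± 0.64 (SE). Foxp2 and Meis2 were set apart by 1.11 over the hypothalamus and 1.51 over the cerebral cortex. Bcl11b, also called Ctip2, differed by 2.83 from the mean but by only 0.13 from the next region. Dlx1 and Dlx2, which act early in these neurons, differed by -0.90 and 0.14.

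The nuclear receptors Rxrg and Rarb, which bind retinoids, were set apart together with Crabp1, a carrier of retinoic acid in the cytoplasm. Rxrg read 14.28, 13.99, 13.97 and 14.04 against 9.46 to 12.16 elsewhere, and Rarb 7.72, 7.82, 8.19 and 8.49 against 4.67 to 6.30. Crabp1 lay 2.18 above the midbrain, the next region. The retinoic acid list as a whole did not follow. Of its 13 members 4 were highest in the ventral striatum (30.8%, against 14.9% of all genes), these 3 among them, and the list median was 0.18. Aldh1a1, which makes retinoic acid and marks a group of midbrain dopamine neurons, differed by -2.29 from the mean of the other regions, and Cyp26b1, which degrades retinoic acid, by -1.01.

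Cholinergic interneurons are few in the striatum, but genes known from them were set apart. Slc5a7, the choline transporter, read 10.84, 10.97, 10.44 and 10.74 against 5.63 to 9.61 elsewhere. It lay 1.25 above the midbrain, Slc18a3, the vesicular acetylcholine transporter, 1.23 above the midbrain, and Lhx8, a factor that specifies these cells, 1.99 above the hypothalamus. Chat itself differed by 0.83, was at -0.05 from the next region and was well above background in only 7 of the 20 other channels. Slc5a7 and Lhx8 are also on the list for septum and basal forebrain, of whose 10 measured members 3 were set apart, so these genes do not tell striatal from basal forebrain cholinergic neurons.

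Markers of other interneurons were not set apart. Npy and Sst differed by 1.598 and 0.83 and were close to the cerebral cortex, at 0.25 and -0.29 from it. Pvalb differed by -1.06 from the mean of the other regions, and Calb2, the calcium-binding protein calretinin, by -2.27. Over the whole interneuron list 8 of 14 genes were highest in the ventral striatum and 4 were set apart, 5 without channel 1, with a median difference of 0.94 (0.55 with normexp).

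Compartment genes gave a mixed picture. Kremen1, a receptor that dampens Wnt signalling and is used as a striosome marker, read 7.09, 7.76, 7.66 and 7.54 and was at least 7.67-fold above every other region by the bound, as it was well above background in 5 of the other 20 channels. No other of the 10 measured striosome and matrix genes was set apart over all 4 channels, but 2 members were without channel 1, and the list median was 0.97. Of 11 genes known from the accumbens, the olfactory tubercle and the islands of Calleja, 2 were highest in the ventral striatum and 1, Synpr, was set apart. Synpr, a synaptic vesicle protein, read 11.65 in channel 1 and 13.62, 13.28 and 13.34 in the others. Cartpt, the precursor of the peptide CART, lay 2.62 above the mean of the other regions yet at -1.504 from the midbrain.

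Ion channels and their auxiliary subunits were set apart in both directions. Scn4b, a sodium channel subunit linked to resurgent current, read 15.55, 16.03, 15.95 and 15.98 against 9.16 to 14.01, with the midbrain 2.09 lower. Kcnab1, a subunit of voltage-gated potassium channels, differed by 2.54, and Kcnk2, the leak channel TREK-1, by 2.01, with margins of 2.18 and 1.76. In contrast, Kcnj6 and Kcnj9, which encode the GIRK2 and GIRK3 channels that Gi-coupled receptors open, were at least 2-fold lower than in every other region. Over the 19 measured channel genes 3 were set apart as higher and 2 as lower, and the lower count was 1 without midbrain array 1 and 1 with normexp.

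Glutamate and GABA receptor genes varied less. None of 22 glutamate receptor genes was set apart, 6 were highest in the ventral striatum, and the differences ran from -1.79 for Grm2 to 1.38 for Grik2, with a median of 0.48. Of 17 GABA genes, Gad2, a GABA-synthesising enzyme, differed by 1.70 and Gabra4, a receptor subunit, by 1.44, neither set apart. Gabbr2, a subunit that every functional GABA-B receptor needs, was the 1 member set apart, and it was low.

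No gene was called lower, and the genes set apart as low are described by their levels. Ptpn3, a cytoskeleton-linked phosphatase, read 6.27, 5.79, 6.52 and 6.17 in the ventral striatum and between 9.47 and 13.41, median 10.16, elsewhere. That is 23.1-fold lower, -4.53 ± 1.17 (SE) with an adjusted limma p of 0.822 and a margin of -3.59 to the cerebral cortex, the next lowest region, and the hypothalamus highest. A dimmer second probe of Ptpn3, well above background in 14 of 24 channels, differed by only -0.52, so the probes disagree in size. Adcyap1, the precursor of the peptide PACAP, read 4.98, 4.82, 5.25 and 5.12 against 8.02 to 9.84 elsewhere, a difference of -3.83 ± 0.57 (SE) with an adjusted limma p of 0.202, and its 2 other probes gave -3.06 and -0.85. Nrn1, neuritin, an activity-induced protein of excitatory neurons, read 9.59, 9.47, 9.61 and 9.39 against 11.26 to 13.20 and differed by -2.88 ± 0.53 (SE).

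Kcnj6, Gabbr2 and Oprl1, which take part in signalling through Gi-coupled receptors, were among the low genes. Kcnj6 read 7.33, 7.18, 6.73 and 6.99 against 8.14 to 11.20, a difference of -2.69 ± 0.66 (SE). Gabbr2 read 12.46 in channel 1 and 12.14, 12.16 and 12.16 in the others, against 13.23 to 14.89. Oprl1, the nociceptin receptor, read 8.49, 8.67, 8.55 and 8.57 against 9.62 to 10.34, a difference of -1.43 with a margin of -1.14 to the hippocampus. A second Oprl1 probe differed by -0.85 with a margin of -0.73, less than 2-fold. For each of these genes the ventral striatum channels lay below every other channel, as they did for 1.63% of all genes. The 3 were put together after their values had been seen, and not all such genes were low. Drd2 and Chrm4, which also couple to Gi, were set apart as higher, Chrm4 on its brightest probe only. On their brightest probes Gabbr1 differed by -0.06, Kcnj3 by 0.02 and Oprm1 by 0.30. Their other probes gave -0.42 for Gabbr1, -1.21 to -1.84 for Kcnj3 and -0.56 for Oprm1.

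**Figure D4:**
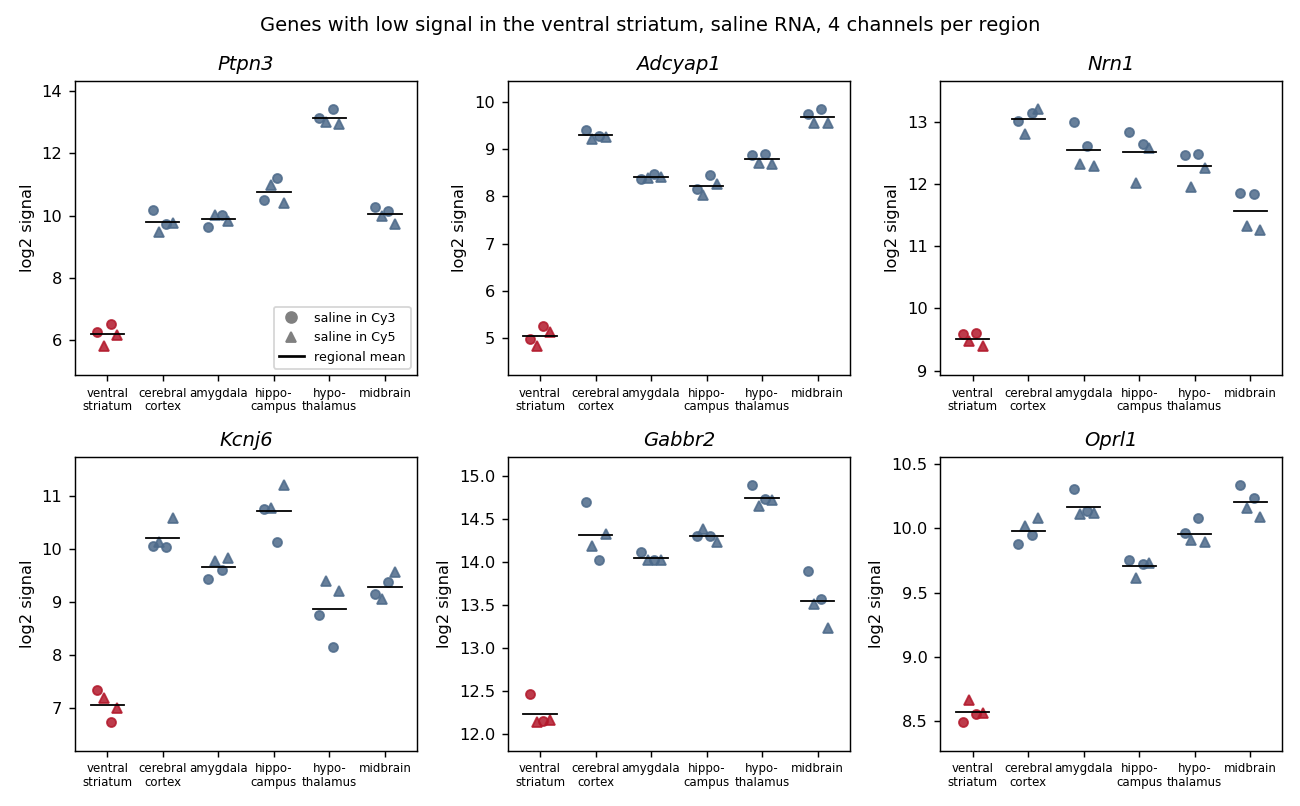
Log2 signal of Ptpn3, Adcyap1, Nrn1, Kcnj6, Gabbr2 and Oprl1 in each saline channel of the 6 regions, with circles for saline RNA in Cy3, triangles for saline RNA in Cy5 and a line for the regional mean. The 4 ventral striatum channels (red) lie below the 20 others (blue) in every panel, and the margin to the next lowest region runs from -1.14 log2 units for Oprl1 to -3.59 for Ptpn3.

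Other genes set apart as low included some known from excitatory neurons or calcium signalling and some of other kinds. They too were chosen after their values had been seen. Bdnf, which the striatum is known to receive from cortical axons rather than to make, read 6.58, 6.08, 5.88 and 6.05 against 7.23 to 9.78, a difference of -3.29 from the cerebral cortex. A second Bdnf probe gave -2.27 where the first gave -2.29. Vsnl1, a neuronal calcium sensor, differed by -1.64 and the peptide precursor Grp by -2.93. Slc6a7, the brain proline transporter of excitatory terminals, differed by -2.46, and Chst8, a sulfotransferase, by -2.60, the latter well above background in only 1 ventral striatum channel. The calcium-linked genes Pnck, a kinase, and Necab3, a calcium-binding protein, differed by -2.15 and -2.44, Cdk14, a cyclin-dependent kinase, by -1.99, and Plcxd2, a phospholipase C-like protein, by -2.22.

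Projection neuron genes of cortex and hippocampus were low as a list but mostly shared that with other regions. Their median difference was -1.21, 5 of 17 were lowest in the ventral striatum (29.4%, against 14.4% of all genes), and Nrn1 alone was set apart over all channels. Without ventral striatum channel 1 the list had 2 members set apart as lower and 1 as higher, without midbrain array 1 it had 2 lower, and with normexp its median was -0.66. Neurod1, a factor of excitatory neurons, differed by -3.62, and Slc17a7, the vesicular glutamate transporter of cortical neurons, by -2.04, although the midbrain was 1.45 below the ventral striatum for Slc17a7. Slc17a6, the transporter of thalamic and brainstem glutamate neurons, was lowest in the ventral striatum, at -0.46 from the cerebral cortex. Cck, a peptide of cortical and midbrain neurons, was at -0.99 from the midbrain, just outside the limit for being set apart.

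Genes of neighbouring or contaminating tissue were examined as lists. Midbrain monoamine genes had a median difference of -1.03, which was -0.80 without channel 1 and -0.36 with normexp, and Slc6a3, the dopamine transporter, was not well above background in any ventral striatum channel. Hypothalamic genes had a median of -0.26, although Trh, the precursor of thyrotropin-releasing hormone, differed by 2.99 from the mean and by -1.21 from the hypothalamus. Amygdala genes had a median of -1.13, thalamic genes of -1.05, and the 3 measured olfactory bulb genes of 0.11. With normexp the hypothalamic median was -0.17 and the thalamic median -0.61, and without channel 1 the olfactory bulb median was 0.057. None of these 5 lists had a member set apart as high. The neuroblast list had a median of 0.12, with Igfbpl1, a gene of newborn neurons, at 2.27 and 0.79 above the next region.

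Non-neuronal lists also differed between the regions. The mean log2 level of 14 oligodendrocyte genes was 11.67 to 11.99 in the ventral striatum channels, above the 10.55 to 10.79 of cerebral cortex and below the 12.57 to 13.15 of midbrain, and 0 of the 14 were set apart. Astrocyte genes had a median difference of -0.40 (-0.22 without channel 1) and a mean level of 11.20 to 11.40, close to the cerebral cortex at 11.02 to 11.23 and lower than in the other 4 regions. Microglial and endothelial genes had medians of 0.12 and 0.04. Meningeal genes were lowest in the ventral striatum for 8 of 11 members and choroid plexus genes for 4 of 9. That share was 14.4% over all genes, and with normexp the counts were 6 and 2. Their medians were -0.99 and -1.07 (-0.82 and -0.46 with normexp), and red blood cell genes had a median of 0.05. The mean log2 level of the choroid plexus list was 5.61 to 6.13 in the ventral striatum channels, above the 5.13 to 5.37 of cerebral cortex. The part of these levels in the differences of other genes was not tested.

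Immediate early genes, which neurons switch on with activity, depended on the region used for comparison. Egr2 differed by 2.77 from the mean of the other regions, Egr4 by 2.62 and Egr1 by 1.61, but all 3 were below the cerebral cortex, by -0.83, -0.18 and -0.60. Egr2 read 9.497 in channel 1 and 10.95 to 11.01 in the others. Fos differed by -0.73 from the mean of the other regions. None of the 14 measured members was highest in the ventral striatum, against 14.9% of all genes.

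Several higher genes carried names from tissues outside the brain. These groups were picked after the values were seen, and they carry no test. Genes of the muscle sarcomere were set apart, with Tnni3, the cardiac form of troponin I, first among them: it read 12.08, 11.86, 11.49 and 11.60 against 4.41 to 7.63 elsewhere, a difference of 5.35 ± 0.85 (SE) with an adjusted limma p of 0.271. Myh6 and Myh7, the cardiac myosin heavy chains, differed by 2.61 and 2.71, Actn2, an actinin also found in dendritic spines, by 2.82, and Tnnt1, a slow muscle troponin T, by 2.41. Myh6 and Myh7 are near-identical neighbours, and their probes may read each other's RNA.

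Genes best known from white blood cells were set apart beside Ptpn7. Tbc1d10c, which restrains calcineurin and Ras in lymphocytes, read 11.81, 11.32, 11.65 and 11.59 against 3.77 to 6.56, a difference of 5.97 ± 0.66 (SE) with an adjusted limma p of 0.0994. Its dimmer second probe differed by 0.20, so the probes disagree. Cytip, a cytohesin-binding protein, differed by 3.05, Arhgap9, a regulator of small GTPases, by 2.59 and its second probe by 2.36, and Pik3cd, a lipid kinase subunit, by 2.01. The microglial list, whose median was 0.12, did not share this pattern.

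Cell-surface peptidases, receptors and genes of other kinds were also set apart. Mme, the enzyme neprilysin that cleaves enkephalin and substance P, read 10.32, 10.38, 10.21 and 10.44 against 4.71 to 8.08, with the midbrain 2.31 lower. Anpep, aminopeptidase N, which also cleaves enkephalin, differed by 2.90 on its brightest probe and by -0.16 on another. Ace, the angiotensin-converting enzyme, stood 1.04 above the midbrain, and its second probe 1.17. Htr1d, a serotonin receptor, was at least 5.18-fold higher than in every other region by the bound. Itgb6, an integrin subunit, differed by 4.93, Bik, a death-promoting protein, by at least 3.73, and Lrrk2, the kinase mutated in some forms of Parkinson's disease, by 2.26.

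Over all genes the ventral striatum was most like the amygdala and the cerebral cortex. The regional levels correlated across genes at r = 0.976 with the amygdala, 0.972 with the cerebral cortex, 0.963 with the hippocampus, 0.962 with the midbrain and 0.954 with the hypothalamus. Counts past 2-fold in either direction followed that order at its ends, with 3053 genes (10.6%) against the amygdala, 3646 (12.7%) against the cerebral cortex, 4503 (15.7%) against the midbrain, 5150 (17.9%) against the hippocampus and 5867 (20.4%) against the hypothalamus. By the same description of being set apart, the other regions had 192 (amygdala) to 269 (hypothalamus) higher genes and 84 (amygdala) to 264 (midbrain) lower genes, beside the 295 and 133 of the ventral striatum. Each region lay on a slide of its own, so regional and slide differences cannot be told apart.

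The same contrast was then read in the RNA of the MK-801 rats on the same arrays, which the choice of saline channels had not used. Slides were shared, the probes were those chosen in the saline channels, and the processed signals were dye-normalised. Likeness between both kinds of RNA is therefore partly built in. In that RNA 281 genes (0.979%) were set apart as higher and 165 (0.575%) as lower, and limma called 0 (0%) in either direction, with 1028 genes at an unadjusted p under 0.05. Both kinds of RNA shared 246 higher genes, 83.4% of those in saline and 87.5% of those in MK-801 RNA, and 110 lower genes, 82.7% and 66.7%. Rgs9 differed by 5.88 in MK-801 RNA, Adora2a by 5.62, Drd1 by 5.60, Gpr6 by 6.55 and Penk by 4.28. Among these 5 genes the gap between the treatments was widest for Drd1, at -0.175.

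The difference between the treatments, MK-801 minus saline in the ventral striatum contrast, was small for the genes described here. Its median was -0.01 over the 295 higher genes, with a range of -0.62 to 0.50, and -0.05 over the 133 lower genes, with a range of -0.64 to 0.66. Over all genes the median was -0.01. Limma called 0 genes (0%) with a higher difference and 1 (0.00348%) with a lower one, a transcript without a symbol that was well above background in 2 of 4 ventral striatum saline channels, and 1068 genes had an unadjusted p under 0.05. For Nrn1 and Adcyap1 the contrast was -3.51 and -4.44 in MK-801 RNA, larger in size than in saline RNA, but neither difference was called.

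**Figure D5:**
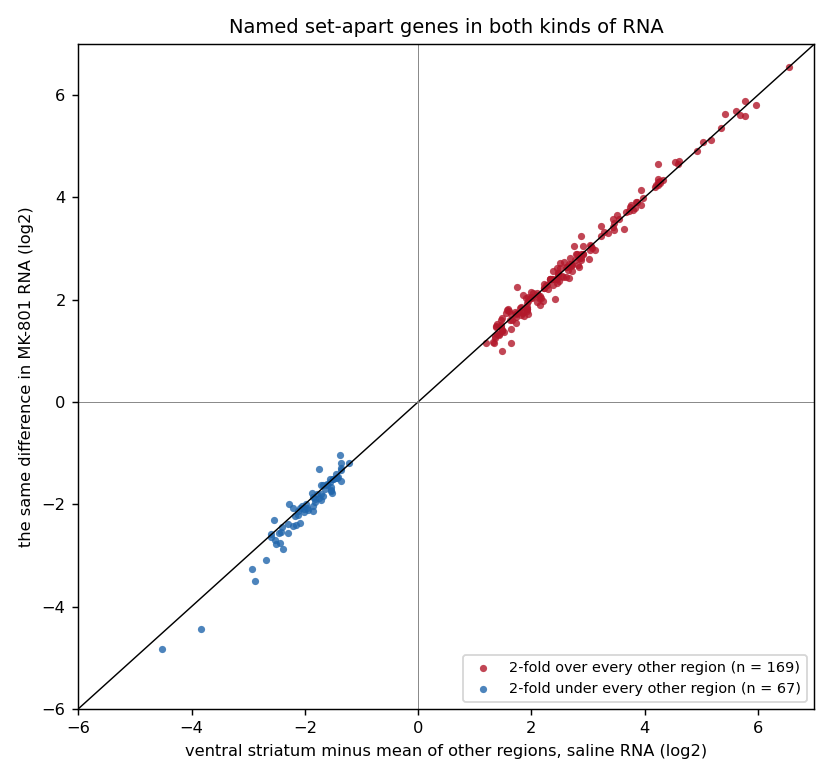
Difference between the ventral striatum and the mean of the other 5 regions in MK-801 RNA (log2, vertical axis) against the same difference in saline RNA (horizontal axis) for the named genes set apart in saline RNA, 169 higher (red) and 67 lower (blue), with a line of equality. The points lie along the line, and Gpr6 is at 6.56 in saline and 6.55 in MK-801 RNA.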

How the data were processed

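Agilent two-colour arrays, 4 per region, were read from 24 deposited scanner files. Per the file headers, Agilent Feature Extraction 9.5.3.1 gave each spot a processed signal per colour, a fluorescence intensity after background subtraction and dye normalization, with flags, and placed probes on rn3. RNA was amplified and labelled, per the labels' protocols.

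Of 45018 spots, 43379 were not controls. Outlier-flagged spots were dropped and the spots of a probe averaged. The processed intensity of the saline colour was put on a log2 scale and quantile-normalised over the 24 saline channels, and the MK-801 channels likewise. Of 41012 probes, 33572 were well above background in at least 4 of 24 saline channels, and the brightest probe stood for a gene. Names came from RefSeq's gene list (assembly GRCr8) for 10735 probes through their accession, 5577 through their symbol and 3730 through a synonym, while 20970 stayed as named in the files.

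Region and dye were fitted per gene to give 6 regional values, and the ventral striatum was tested against the other 5 with limma 3.58.1 (lmFit and eBayes) in R 4.3.3, with statmod 1.5.0, data.table (version 1.17.8) and Benjamini-Hochberg adjustment over 28709 genes. Figures used Python 3.11.15, pandas 2.3.3, numpy 2.4.6 and matplotlib 3.10.9. The code was tested on simulated data. Levels of different probes were not compared. The median signal was 1.83 to 4.09 times background in ventral striatum channels and 1.82 to 5.77 times elsewhere, and the number of arrays limits precision. The file of the first midbrain array held 3 significant digits.

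Genes and lists were chosen with earlier results of these data known. Named genes were the 3 markers, list members called or with the 3 largest differences, the 10 largest margins over and under the other regions, and genes called between treatments. Any other gene was named after its values were seen, as was the 2-fold description. The 29 lists held 376 entries. Alternatives covered signal, scaling, filters, probes, fits, dyes, arrays, regions and scan day.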

Additional observations from a re-analysis of the deposited data

Results flagged for a closer look

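A gap test (Dixon's, at its 95% critical value for 4 values) was run on the 4 ventral striatum saline channels of each of 88 named genes with all 4 values, and 12 had a channel far from the others. Chance gives about 1 in 20 such groups. In all 12 the channel was number 1, the channel that correlated least with the rest of its region.

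Channel 1 was the low one for 5 genes. Synpr read 11.65 against 13.28 to 13.62 in the other 3 channels, Egr2 9.497 against 10.95 to 11.01, Aif1, a microglial gene, 11.84 against 12.83 to 12.84, Lhx8 7.10 against 7.73 to 7.84, and Scn4b 15.55 against 15.95 to 16.03.

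Channel 1 was the high one for the other 7. Pdyn read 15.84 against 15.04 to 15.15, Gabbr2 12.46 against 12.14 to 12.16, Calb2 10.79 against 10.28 to 10.34, Cdhr1, an olfactory bulb gene, 13.04 against 12.20 to 12.23, Tbx21, also of the olfactory bulb, 4.25 against 3.32 to 3.46, Chst8 4.08 against 3.23 to 3.35, and Necab3 7.67 against 6.79 to 6.93. What set channel 1 apart was not tested.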

How the results depend on the processing

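The 3 higher calls became 11 with normexp background correction, 0 with 75th percentile scaling, Cy3 channels only or scan day as a block, 1 with only probes well above background in all 24 channels, 1 with a trended robust prior, and 0 to 4 when an array number, ventral striatum channel or region was left out. The 0 lower calls became 1 with normexp. Counting channels as replicates, the fit with a replicate block called 4339 (15.1%) higher and 4431 (15.4%) lower, and region as a random block (correlation 0.569) called 220 and 135, with Drd1 at 5.77 and Adora2a at 5.68 passing in both. The array numbers did not pair the regions (median correlation of deviations 0.07, lowest -0.12), so no weight is put on the block. Adora2a also passed with normexp, at 5.33. Rgs9 kept its direction but lost its call at 5.86 with 75th percentile scaling, 5.77 in Cy3 only and 5.70 with scan day blocked. The Rgs9 call was also lost without array number 2 or 3, or without any of the other regions, at 5.66 to 5.94. Normexp gave 185 genes over and 61 under every other region, probes well above background in all 24 channels 125 and 84, and the runs leaving something out 289 to 391 and 123 to 211, the last without the cerebral cortex, for which fewer regions need be passed (202 without the amygdala). Without midbrain array 1, an alternative added after the data were seen, 296 and 136 were found. In MK-801 RNA 3 higher calls appeared without array number 4, and the 1 call between treatments became 0 without array number 1, 2 or 3, or with no filter.

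Of the named genes' other values, 2061 kept direction and side of the threshold, 23 lost and 107 gained a call, and 32 changed sign. Of the gained calls 76 came from the fit with the replicate block and 28 from the random block, both of which count channels as replicates. Sign changes with scan day as a block were Slc6a3 (0.48), Nr2f2 (0.10), Gfap (0.11), Agt (1.06), Ttr (3.17), Egr2 (-0.83), Egr4 (-0.18) and Egr1 (-0.60), since that block leaves the cerebral cortex alone as comparison. The others were genes near 0: Tbx21 was -0.12 with normexp, -0.32 with 75th percentile scaling and -0.058 in Cy3 only, Hbb -0.043 with normexp and -0.17 in Cy5 only, and Slc4a1 -0.080, -0.054 and -0.074 with normexp, 75th percentile scaling and Cy5 only. In the runs leaving something out Tbx21 ran from -0.37 to 0.41, Hbb from -0.15 to 0.37, Slc4a1 from -0.0029 to 0.13, Doc2g from -0.034 to 0.22 and Cd68 from -0.44 to 0.029. The cause was not tested unless stated. Signal limits what was seen: 94 of the 295 higher genes and 9 of the 133 lower ones rest on levels not well above background.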

Other observations

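Further named genes at least 2-fold over every other region in saline RNA belong to second-messenger signalling. They were picked after their values had been seen, and none passed the test. Dgkb, a diacylglycerol kinase, differed by 2.33 log2 units from the mean of the other regions and by 1.32 from the next region. Gucy1a1, a subunit of the guanylyl cyclase that nitric oxide activates, differed by 2.00, with a margin of 1.30. Akap5, which anchors protein kinase A at synapses, differed by 2.45, with a margin of 1.17. Rgs2 and Rgs8, which belong to the same family as Rgs9, differed by 1.65 and 2.17. Pde8b, a phosphodiesterase of cyclic AMP, differed by at least 1.89.

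Synaptic and receptor genes were found beside them. Sv2c, a synaptic vesicle protein known from the basal ganglia, differed by at least 2.57, and Slc17a8, the vesicular glutamate transporter VGLUT3 that cholinergic interneurons carry, by at least 2.06. Mc4r, the melanocortin receptor of feeding circuits, differed by 1.79 and stood 1.46 above the next region. On the low side, the voltage-gated channel genes Cacna1g, a T-type calcium channel, Kcnc2, a potassium channel of fast-spiking neurons, and Kcns3, a modifying potassium channel subunit, differed by -1.69, -1.79 and -2.31. Nr2f1, a nuclear receptor that patterns the developing cortex, differed by -1.56.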
